A study of Homo sapiens with 36 samples.

Results

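Untreated Cal27 cells were compared with untreated HN4 cells across the autosomal genes of an RNA-seq gene count table. Both are established human lines of head and neck squamous cell carcinoma, and Cal27 came from a tumour of the tongue. The comparison used 6 of the 36 libraries of the series: the 3 libraries of Cal27 without treatment and the 3 of HN4 without treatment. 17070 of the 55746 autosomal genes in the table were read well enough to be tested, 13227 of them protein-coding. Both lines were grown in Dulbecco's modified Eagle's medium with 10% fetal bovine serum depleted of exosomes, with no agent added. RNA with a poly-A tail was sequenced.

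The series set these lines, with another line named HN6, in 2 experiments: 1 in which cells were left untreated or were given recombinant interleukin-8 (IL-8) at 100 ng per ml for 24 h, and 1 in which they were transfected with a plasmid carrying ACLY or with the vector. Its title names CXCR1, a receptor of IL-8, as the feature by which its tumour cells differ. Here the treated libraries are left aside, and the plasmid libraries serve only as a separate set of Cal27 and HN4 libraries. In that set every HN4 library goes against its label, since ACLY was at 232 CPM in Cal27 labelled vector, 1515 CPM in HN4 labelled vector and 350.3 CPM in HN4 labelled ACLY, so the names of the HN4 plasmid groups are given as labelled. Each tumour is represented by 1 line. Whether the 3 replicates of a line grew as separate cultures is not stated, and the p-values therefore rest on a spread that may be technical. The 6 libraries held 16855576 to 19197976 counts, and with 3 counts as the floor a library with no reads of a gene has an upper limit of 0.156 to 0.178 CPM. CPM is the gene's count after scaling all libraries to the same size.

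Squamous epithelium has a basal layer that carries the transcription factor p63, the keratins 5 and 14 and integrin anchors to the basement membrane. As its cells move up they lose these and build a cornified envelope. Carcinomas of this epithelium keep parts of the programme, often with keratins of wounded or single-layered epithelia, and in culture they secrete cytokines, growth factors and proteases.

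Levels are TMM-scaled CPM, given as mean ± SD over the 3 libraries of a line (n = 3), and log2 differences are Cal27 minus HN4 with the standard error of the fit. A CPM value does not correct for gene length, so it is compared between lines and never between genes. A gene was called different at an adjusted p under 0.05 in edgeR's quasi-likelihood test. It was called over 2-fold different when the same fit, tested against a limit of 2-fold, gave an adjusted p under 0.05, and p-values are from the test against 2-fold unless said otherwise. In RNA from whole cultures, fewer cells that express a gene and less of its RNA per cell cannot be told apart.

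Markers of squamous epithelium were read in both lines, with the exception of KRT14 in HN4. Of 8 markers in the list used for this check, 6 were over 2-fold higher in Cal27, 1 was higher by less, EPCAM was lower, and none was 0 in Cal27. KRT14, the keratin partner of KRT5 in basal cells, had 0 reads in all 3 HN4 libraries. Summed over the 8 markers the level was 6485 to 7138 CPM in the Cal27 libraries and 981 to 1014 CPM in the HN4 libraries. Among the markers read in HN4 were TP63 (603 CPM in Cal27, 200.4 CPM in HN4), KRT5 (3298 CPM in Cal27, 163 CPM in HN4) and CDH1 (316 CPM in Cal27, 257 CPM in HN4). Leukocyte markers summed to 10.9 to 13.2 CPM in the Cal27 libraries and 6.07 to 7.12 CPM in the HN4 libraries over 10 genes, with PTPRC at 0 reads in Cal27 and 1 read in HN4. The 8 fibroblast markers summed to 27.4 to 29.8 CPM in Cal27 and 39.8 to 43.7 CPM in HN4, with PDGFRA at 0 reads in both, and FAP at 0.0177 CPM in Cal27 and 31.6 CPM in HN4. The lower sum in Cal27 came from FAP: of the 5 fibroblast markers tested, the other 4 were over 2-fold higher in Cal27, COL1A1 (16.8 CPM in Cal27, 7.11 CPM in HN4), COL1A2 (0.748 CPM in Cal27, 0 reads in HN4), PDGFRB (9.23 CPM in Cal27, 2.82 CPM in HN4) and LUM (1.57 CPM in Cal27, 0.0169 CPM in HN4). COL1A1 lost its call in DESeq2 (adjusted p = 0.336), without the first or the third Cal27 library (adjusted p = 0.0752 and adjusted p = 0.0651) and without the first or the second HN4 library (adjusted p = 0.0993 and adjusted p = 0.216). Its call was also lost with no filter on low counts (adjusted p = 0.0555) and in the fit of 18 libraries that adds those given IL-8 (adjusted p = 0.192). The 9 neural markers summed to 169 to 186 CPM in Cal27 and 109.5 to 112 CPM in HN4, most of it ENO2 (135 CPM in Cal27, 109.6 CPM in HN4). The 8 muscle markers summed to 43.4 to 49.5 CPM in Cal27 and 17.4 to 21.8 CPM in HN4, most of it TNNT1 (42.7 CPM in Cal27, 18.8 CPM in HN4). The 7 endothelial markers summed to 33.4 to 35.8 CPM in Cal27 and 27.1 to 30.7 CPM in HN4, and the 7 melanocyte markers to 8.1 to 9.65 CPM in Cal27 and 14.2 to 17.2 CPM in HN4. The part of these markers in the results below was not tested.

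The 2 lines differed at most of the genes that could be tested. 6322 autosomal genes were higher in Cal27 and 6079 were lower, together 72.6% of those tested, with a median log2 difference of 0.0096 over all. The 2-fold limit was passed by 4148 genes, or 24.3% of those tested. Of these, 2184 genes (12.8%) were higher in Cal27, at a median log2 difference of 2.56, and 1964 (11.5%) were lower, at a median of -2.23. With only genes at a mean of 5 CPM or more over the 9 untreated libraries, the count past 2-fold was 1953 of 11049, of which 903 were higher in Cal27 and 1050 lower, so that falls outnumbered rises. The fitted difference was over 8-fold in 1581 genes and over 32-fold in 873. In 4146 of the 4148 genes past 2-fold, the 3 Cal27 libraries did not overlap with the 3 HN4 libraries. Lack of overlap therefore holds for nearly every such call and marks out none of the genes named below. By gene class, the 2-fold limit was passed by 38.6% of 1070 long intergenic non-coding RNAs, 23.2% of 13227 protein-coding genes and 22.6% of 1091 antisense RNAs. Counts of list members below stand against the shares of all tested genes, 12.8% higher and 11.5% lower.

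**Figure D1:**
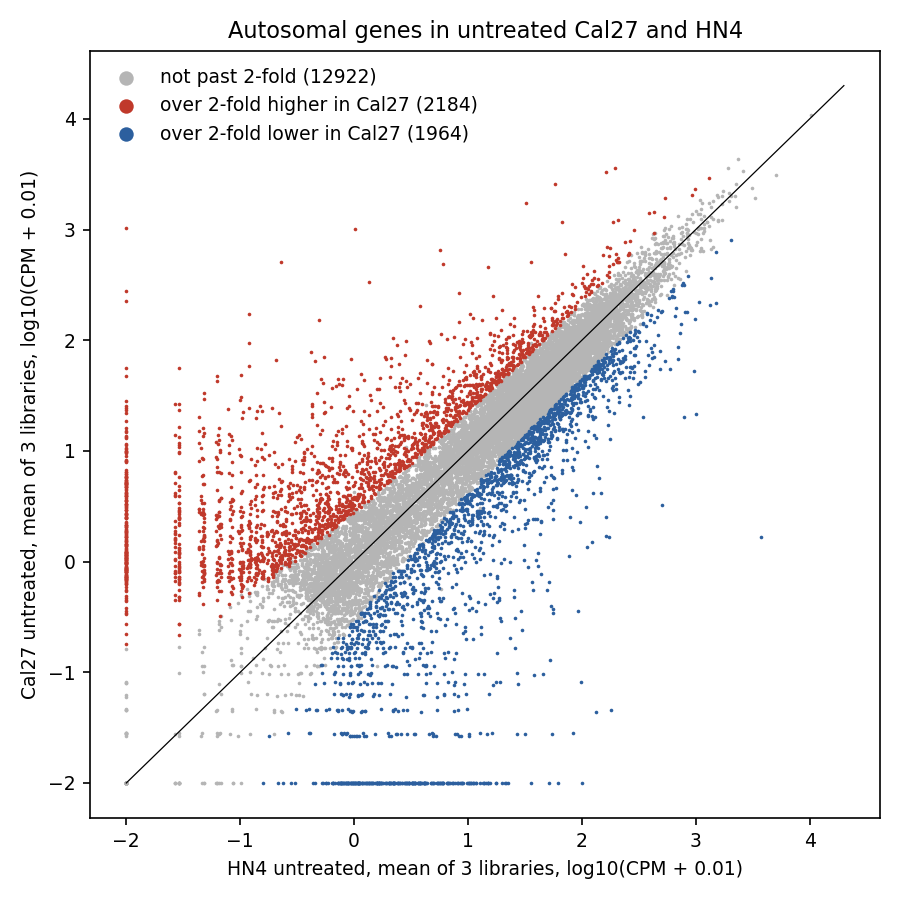
Mean level of each of the 17070 tested autosomal genes in untreated Cal27 (vertical axis) against untreated HN4 (horizontal axis), both as log10(CPM + 0.01), with n = 3 libraries per line. Red points are the 2184 genes over 2-fold higher in Cal27, blue points the 1964 over 2-fold lower, grey points the rest, and the columns of points at the left and bottom edges are genes with no reads in HN4 or in Cal27.

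The plasmid libraries of the same 2 lines showed most of these differences again. Cal27 labelled vector against HN4 labelled vector had 4488 genes over 2-fold different (25.9% of 17306 tested), and Cal27 labelled vector against HN4 labelled ACLY had 4109 (23.7%). The third HN4 library labelled ACLY stands apart from its group, with 2.15% of counts on mitochondrial genes against 5.71% and 6.03% in the other two, and the count was 4171 without it. These 2 comparisons share the Cal27 libraries, and neither shares a library with the untreated comparison. Of the 4148 genes called in untreated cells, 4038 of 4053 tested had the same direction against HN4 labelled vector (99.6%), and 3349 were called over 2-fold in that direction. Those 3349 genes were 80.7% of the untreated list and 74.6% of the plasmid list. Against HN4 labelled ACLY the direction was shared by 4047 of 4053, and 3526 were called, which were 85% and 85.8% of the 2 lists. No gene was called over 2-fold in opposite directions by edgeR or by DESeq2 in either comparison. Without adjustment, 3 genes had the opposite direction at a p under 0.05 in edgeR's test against no difference for HN4 labelled vector, and 0 for HN4 labelled ACLY. The third line, HN6, stood nearer to the line with the lower level in the larger part of both sets, on log2(CPM + 0.5). Among genes higher in Cal27, HN6 was nearer to HN4 in 1354 and to Cal27 in 830. Among genes lower in Cal27, HN6 was nearer to Cal27 in 1080 and to HN4 in 884.

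Most of the largest differences named here were in genes with no reads in 1 of the lines, where the data give only a lower limit to the difference. Among protein-coding genes, 121 stood at 5 CPM or more in Cal27 and at most 0.2 CPM in HN4, and 86 the other way round. Of those 121, 43 had 0 reads in HN4, and of those 86, 46 had 0 reads in Cal27. HN6 reached 5 CPM in 35 of those 121 and in 37 of those 86. KRT14 (chromosome 17, 41582279 to 41586921, minus strand, hg38) had 1134, 969.8 and 993 CPM in the Cal27 libraries, against 0 reads in all 3 HN4 libraries, at least 18834-fold higher against a floor of 3 counts over the HN4 libraries (adjusted p = 1.42e-23). SPARC, a matrix protein that binds collagen (chromosome 5, 151661096 to 151687165, minus strand), had 217, 236 and 229 CPM in the Cal27 libraries, against 0 reads in all 3 HN4 libraries, at least 4142-fold higher (adjusted p = 4.22e-23). Both genes were strongly read in every Cal27 library and in none of HN4. MT1E, a metallothionein that binds zinc and copper, had 280.2, 255 and 303 CPM in the Cal27 libraries, against 0 reads in all 3 HN4 libraries. G6PC3, the glucose-6-phosphatase of most tissues, had 52.2, 43.7 and 46.7 CPM in the Cal27 libraries, against 0 reads in all 3 HN4 libraries. MT1E has close relatives among the metallothioneins and its reads are uncertain. Others of the 10 largest rises were MLF1 (55.6 CPM in Cal27, 0 reads in HN4), RASGEF1A (28.4 CPM in Cal27, 0 reads in HN4) and HENMT1, which methylates the ends of small RNAs (24.3 CPM in Cal27, 0 reads in HN4). The rest were the neurofilament NEFL (23.3 CPM in Cal27, 0 reads in HN4), C1orf115 (22 CPM in Cal27, 0 reads in HN4) and CD74, the invariant chain of MHC class II (514 CPM in Cal27, 0.217 CPM in HN4).

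Of 9 of the largest falls, 6 were in genes with no reads in Cal27. SLC20A2, a sodium-dependent phosphate transporter, had 0 reads in all 3 Cal27 libraries, against 99.5, 103 and 99.4 CPM in the HN4 libraries, at least 1917-fold lower in Cal27 (adjusted p = 4.9e-21). SMIM19, its neighbour on chromosome 8, was also in the 10 largest and had 0 reads in all 3 Cal27 libraries, against 23.9, 20.5 and 19.4 CPM in the HN4 libraries. Both genes of the pair had no reads in Cal27 and were read in all 3 HN4 libraries, and HN6 held 62 and 13.8 CPM of them. ICA1, an islet cell autoantigen that acts in secretory vesicles (chromosome 7, 8113184 to 8262687, minus strand), had 0 reads in all 3 Cal27 libraries, against 61.2, 63.2 and 58.8 CPM in the HN4 libraries (adjusted p = 9.93e-18). The other falls of this size were GLB1L2 (0 reads in Cal27, 51.5 CPM in HN4), XYLT1, which starts the sugar chains of proteoglycans (0 reads in Cal27, 35.6 CPM in HN4), and the collagen COL8A1 (0.0358 CPM in Cal27, 180.3 CPM in HN4). The same set held GTSF1 (0.0181 CPM in Cal27, 84.3 CPM in HN4), CLEC2L (0 reads in Cal27, 22.6 CPM in HN4) and the hair keratin KRT81 (1.64 CPM in Cal27, 3769.6 CPM in HN4).

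Among genes with at least 20 CPM in both lines, 609 protein-coding genes were over 2-fold different. The 6 largest rises were COL17A1, KRT5, IGFBP3, TXNIP, CAT and FAT2. TXNIP, which binds thioredoxin and restrains glucose uptake, was at 1160.4 ± 46.8 CPM in Cal27 and 67.3 ± 3.49 CPM in HN4 (log2 difference 4.11 ± 0.0585, adjusted p = 7.41e-23). CAT, the catalase that breaks down hydrogen peroxide, was at 505 ± 10.4 CPM in Cal27 and 36.1 ± 1.37 CPM in HN4 (log2 difference 3.80 ± 0.0595, adjusted p = 7.86e-22). FAT2, a giant cadherin of squamous epithelia, was at 607 ± 20.6 CPM in Cal27 and 70.9 ± 3.56 CPM in HN4 (log2 difference 3.10 ± 0.0636, adjusted p = 3.79e-19). The 6 largest falls were ALDH1A3, PMEPA1, SLC37A2, EREG, LTBP3 and AMIGO2. SLC37A2, a sugar-phosphate transporter, was at 20.4 ± 1.73 CPM in Cal27 and 343 ± 5.67 CPM in HN4 (log2 difference -4.07 ± 0.0695, adjusted p = 3.13e-21). AMIGO2, a cell surface adhesion protein, was at 54.9 ± 3.46 CPM in Cal27 and 481 ± 14.2 CPM in HN4 (log2 difference -3.13 ± 0.0587, adjusted p = 7.64e-20). The remaining genes of both sets are given below with the lists to which they belong.

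The main keratins of stratified epithelium were higher in Cal27, and KRT7, KRT8 and KRT18 of single-layered epithelium were lower. KRT19, also of single-layered epithelium, was over 2-fold higher at a low level, and hair keratins went in both directions. 13 were over 2-fold higher and 5 over 2-fold lower in Cal27 among the 21 tested, at a median of 1.80. KRT5 had 3584, 3124 and 3186 CPM in the Cal27 libraries, against 169, 154 and 165 CPM in the HN4 libraries (log2 difference 4.34 ± 0.0671, adjusted p = 4.25e-22). KRT17, a keratin of wounded and tumour epithelium, had 521, 477 and 464 CPM in the Cal27 libraries, against 6.25, 5.46 and 6.43 CPM in the HN4 libraries (log2 difference 6.33 ± 0.0912, adjusted p = 4.28e-23). KRT6A, which is induced on wounding, had 701, 639.9 and 628 CPM in the Cal27 libraries, against 7.01, 4.05 and 6.02 CPM in the HN4 libraries (log2 difference 6.84 ± 0.108, adjusted p = 1.65e-19). In each of these every Cal27 library lay far above every HN4 library. KRT15 of basal cells was at 249 CPM in Cal27 and 61.7 CPM in HN4. KRT6B was at 105 CPM in Cal27 and 12 CPM in HN4. KRT16 was at 38.6 CPM in Cal27 and 0.687 CPM in HN4.

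The 5 keratins over 2-fold lower in Cal27 were KRT81, KRT86, KRT7, KRT80 and KRT18. KRT18, of single-layered epithelium, was at 181 ± 8.31 CPM in Cal27 and 494 ± 14 CPM in HN4 (log2 difference -1.44 ± 0.051, adjusted p = 8.64e-09). Its partner KRT8 was at 666 ± 41 CPM in Cal27 and 1354 ± 13.2 CPM in HN4, which was lower but not beyond 2-fold (adjusted p = 6.65e-14 against no difference). KRT7 was at 21.8 CPM in Cal27 and 92.1 CPM in HN4. KRT80 was at 196 CPM in Cal27 and 675 CPM in HN4. KRT81 had 1.46, 1.7 and 1.76 CPM in the Cal27 libraries, against 3666, 3665 and 3978 CPM in the HN4 libraries, with every HN4 library far above every Cal27 library, and KRT86 was at 5.77 CPM in Cal27 and 56 CPM in HN4. Other hair keratins were over 2-fold higher, namely KRT34 (1.69 CPM in Cal27, 0.114 CPM in HN4) and, outside the list, KRT32 (2.7 CPM in Cal27, 0.0386 CPM in HN4), KRT33A (0.73 CPM in Cal27, 0 reads in HN4) and KRT33B (2.12 CPM in Cal27, 0 reads in HN4). KRT6C (2.47 CPM in Cal27, 0.718 CPM in HN4), which the count of rises includes, missed the limit in DESeq2 (adjusted p = 0.258) and without the first or the third HN4 library (adjusted p = 0.0813 and adjusted p = 0.0686). KRT19 was at 4.3 CPM in Cal27 and 1.22 CPM in HN4, while HN6 had 438 CPM. KRT6A, KRT6B, KRT6C, KRT14, KRT16, KRT17, KRT81 and KRT86 have near-identical copies among genes and pseudogenes, and how reads that match several places were counted is not given in the sources used here.

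**Figure D2:**
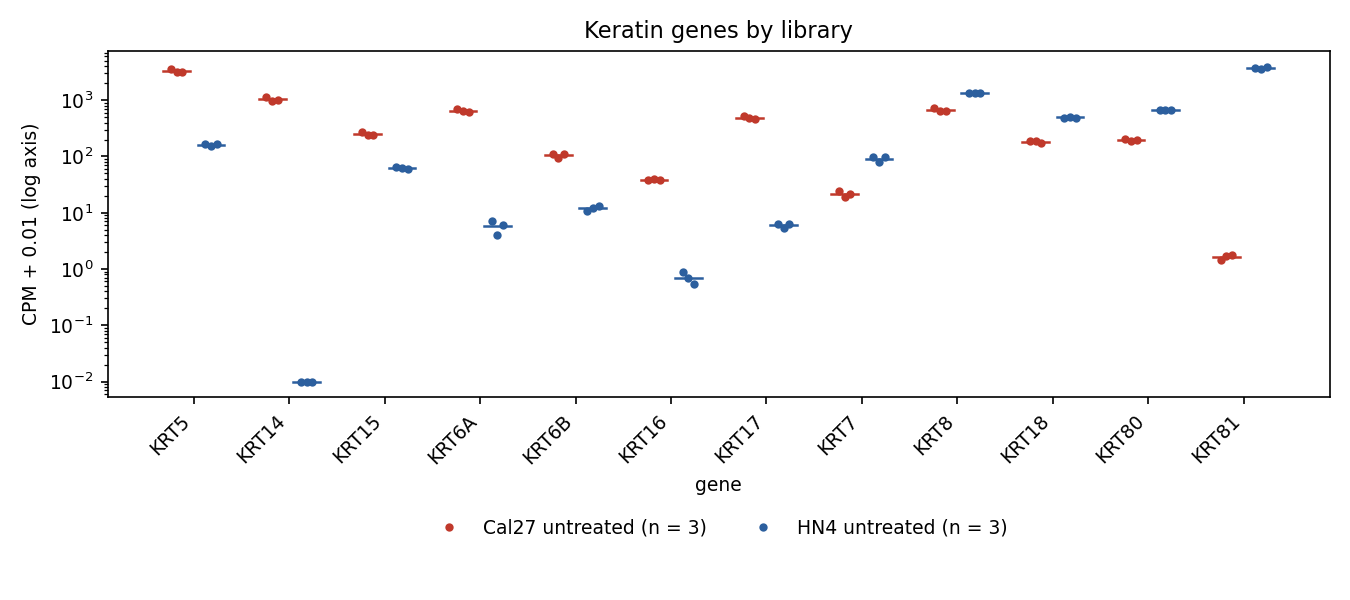
Level of 12 keratin genes in each of the 3 Cal27 libraries (red, left of each pair) and the 3 HN4 libraries (blue, right), as CPM + 0.01 on a log axis, with a bar at the mean. KRT5, KRT14, KRT15, KRT6A, KRT6B, KRT16 and KRT17 lie higher in every Cal27 library, and KRT7, KRT8, KRT18, KRT80 and KRT81 lie higher in every HN4 library.

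Transcription factors of squamous cells were mostly read in both lines, and more of them were higher in Cal27 than lower. In that list, 9 were over 2-fold higher and 4 over 2-fold lower in Cal27 among the 27 tested, at a median of 0.54. TP63, the master factor of stratified epithelium, was at 603 ± 26.8 CPM in Cal27 and 200.4 ± 6.77 CPM in HN4 (log2 difference 1.59 ± 0.0514, adjusted p = 7.16e-11). EHF, an epithelial ETS factor, was at 699.5 ± 50.3 CPM in Cal27 and 165 ± 2.74 CPM in HN4 (log2 difference 2.09 ± 0.0572, adjusted p = 6.1e-15). Among those close to absent from HN4 were SOX2 (5.43 CPM in Cal27, 0 reads in HN4), FOXE1 (10.8 CPM in Cal27, 0.0187 CPM in HN4) and ID3 (58.3 CPM in Cal27, 2.1 CPM in HN4). PAX9, a factor of oral epithelium, was at 12 CPM in Cal27 and 1.57 CPM in HN4. SIM2, TBX3, PRDM1 and OVOL2 went the other way, and TBX3 was at 3.86 ± 0.324 CPM in Cal27 and 26.6 ± 0.715 CPM in HN4 (log2 difference -2.78 ± 0.11, adjusted p = 2.3e-13). GRHL2 (68.3 CPM in Cal27, 70.7 CPM in HN4) and OVOL1 (4.48 CPM in Cal27, 5.69 CPM in HN4) did not pass the test against no difference, with adjusted p = 0.486 and adjusted p = 0.0609.

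Genes of differentiation went in both directions. Among cornified envelope and differentiation genes, 9 were over 2-fold higher and 6 over 2-fold lower in Cal27 among the 30 tested, at a median of 0.69, and 15 of the 45 were read too little to test. S100A2, a calcium-binding protein of basal cells, was at 1212 ± 211 CPM in Cal27 and 209 ± 20.6 CPM in HN4 (log2 difference 2.54 ± 0.183, adjusted p = 0.000111). The protease inhibitor CSTA was at 113 CPM in Cal27 and 15.7 CPM in HN4. LYPD3 was at 56.5 CPM in Cal27 and 12 CPM in HN4. The calmodulin-like CALML3 was at 43.7 CPM in Cal27 and 1.2 CPM in HN4. IVL, the first scaffold of the envelope, was at 2.21 CPM in Cal27 and 0.99 CPM in HN4. FLG, which bundles keratin in the outer layers, was at 1.02 CPM in Cal27 and 0.115 CPM in HN4. The 6 over 2-fold lower in Cal27 were the lipocalin LCN2 (367 CPM in Cal27, 1364 CPM in HN4), the transglutaminase TGM2 (45.7 CPM in Cal27, 241 CPM in HN4), the epidermal caspase CASP14 (0 reads in Cal27, 17.5 CPM in HN4), the elastase inhibitor PI3 (1.5 CPM in Cal27, 8.83 CPM in HN4), CALML5 (0.157 CPM in Cal27, 3.22 CPM in HN4) and SPRR2D (0.141 CPM in Cal27, 1.24 CPM in HN4). Kallikreins, the serine proteases that shed the outer cells, had 7 higher and 1 lower of 9 tested, at a median of 5.53. KLK5 was at 11.3 CPM in Cal27 and 0.0193 CPM in HN4. KLK10 was at 7.36 CPM in Cal27 and 1.99 CPM in HN4. SERPINB inhibitors had 5 higher and 2 lower of 10, with SERPINB13 at 9.18 CPM in Cal27 and 0.168 CPM in HN4. SERPINB5, known as maspin, was at 80.8 CPM in Cal27 and 192 CPM in HN4.

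Several desmosome genes were over 2-fold higher in Cal27, and the claudins CLDN4 and CLDN7 were over 2-fold lower. Among cadherins and desmosome genes, 6 were over 2-fold higher and 1 over 2-fold lower in Cal27 among the 23 tested, at a median of 0.25. The rises took in the desmosome itself. DSP was at 609.8 ± 31.2 CPM in Cal27 and 261 ± 10.4 CPM in HN4 (log2 difference 1.23 ± 0.0528, adjusted p = 0.000142). PKP1 was at 194 ± 9.29 CPM in Cal27 and 53.5 ± 2.51 CPM in HN4 (log2 difference 1.85 ± 0.0612, adjusted p = 2.28e-12). DSG3 was at 82.2 CPM in Cal27 and 22.2 CPM in HN4. DSC3 was at 69.3 CPM in Cal27 and 18.8 CPM in HN4. The E-cadherin gene CDH1 was at 316 CPM in Cal27 and 257 CPM in HN4. The desmosomal cadherin of single-layered epithelium, DSG2, was at 259.9 CPM in Cal27 and 268 CPM in HN4, which did not pass the test against no difference (adjusted p = 0.526). Of the tight junction genes, 2 were over 2-fold higher and 4 over 2-fold lower in Cal27 among the 18 tested, at a median of -0.33. CLDN7 was at 24.7 ± 1.79 CPM in Cal27 and 167 ± 4.75 CPM in HN4 (log2 difference -2.76 ± 0.0777, adjusted p = 3.4e-16). CLDN4 was at 117 ± 9.67 CPM in Cal27 and 294 ± 5.55 CPM in HN4 (log2 difference -1.33 ± 0.0621, adjusted p = 1.37e-05). Not all claudins were lower: CLDN1 was at 507 CPM in Cal27 and 247 CPM in HN4, higher without passing the 2-fold limit.

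Anchors to the basement membrane went in both directions. Of the integrin, laminin and hemidesmosome genes, 3 were over 2-fold higher and 9 over 2-fold lower in Cal27 among the 27 tested, at a median of -0.33. COL17A1, the transmembrane collagen of the hemidesmosome (chromosome 10, 104031286 to 104085957, minus strand), had 1783, 1699 and 1725 CPM in the Cal27 libraries, against 34.1, 29.4 and 33.1 CPM in the HN4 libraries (log2 difference 5.75 ± 0.0643, adjusted p = 8.72e-25). The hemidesmosome linker DST was at 552 CPM in Cal27 and 209 CPM in HN4. DST and COL17A1 were over 2-fold higher. PLEC, the other linker, went the opposite way, with 242, 208 and 206 CPM in the Cal27 libraries, against 1491, 1429 and 1579 CPM in the HN4 libraries (log2 difference -2.78 ± 0.0687, adjusted p = 3.44e-16). Thus 2 linkers of the same structure differed in opposite directions. The integrin subunits ITGA2 (139 CPM in Cal27, 738 CPM in HN4), ITGB1 (381 CPM in Cal27, 853 CPM in HN4) and ITGB5 (59.1 CPM in Cal27, 189 CPM in HN4) were over 2-fold lower in Cal27, as were the laminin chains LAMB1 (79.5 CPM in Cal27, 489.7 CPM in HN4) and LAMA3 (188 CPM in Cal27, 468 CPM in HN4). Of these, ITGB1 missed the limit in DESeq2 (adjusted p = 0.065) and with upper quartile scaling (adjusted p = 0.0821). ITGB1 also missed it in the fit of 18 libraries that adds those given IL-8 (adjusted p = 0.128). ITGB2, the integrin subunit known from leukocytes, was at 2.49 ± 0.444 CPM in Cal27 and 78.4 ± 0.635 CPM in HN4 (log2 difference -4.97 ± 0.104, adjusted p = 8.19e-20). Its partner ITGAM was at 8.36 CPM in Cal27 and 0.15 CPM in HN4, the reverse. ITGB4, the integrin of the hemidesmosome, was at 499 CPM in Cal27 and 527 CPM in HN4 and did not pass the test against no difference (adjusted p = 0.234).

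Mesenchymal genes did not move as a block. Of that list, 7 were over 2-fold higher and 11 over 2-fold lower in Cal27 among the 32 tested, at a median of -0.53. FN1, the fibronectin gene, was at 117 ± 5.21 CPM in Cal27 and 720.3 ± 19.1 CPM in HN4 (log2 difference -2.62 ± 0.0524, adjusted p = 7.81e-19). PMEPA1, a target and brake of TGF-beta signalling, was at 52.9 ± 2.35 CPM in Cal27 and 973 ± 1.16 CPM in HN4 (log2 difference -4.20 ± 0.0585, adjusted p = 4.76e-23). Against these falls stood rises of SPARC, given above, of TNC (1424 CPM in Cal27, 389 CPM in HN4), of the collagen cross-linking LOX (72.3 CPM in Cal27, 12.6 CPM in HN4) and of SNAI2 (53.4 CPM in Cal27, 21.2 CPM in HN4). VIM was near absent from both, at 1.01 CPM in Cal27 and 0.147 CPM in HN4, while HN6 had 119 CPM. Of the collagens, 7 were over 2-fold higher and 3 over 2-fold lower in Cal27 among the 22 tested, and COL8A1 accounts for the largest fall, with 0.0542, 0.0531 and 0 CPM in the Cal27 libraries, against 187, 177 and 177 CPM in the HN4 libraries. Among matrix proteases and their inhibitors, 8 were over 2-fold higher and 7 over 2-fold lower in Cal27 among the 23 tested. The collagenases MMP1 (15.3 CPM in Cal27, 0.514 CPM in HN4) and MMP13 (16 CPM in Cal27, 0.0375 CPM in HN4) and the stromelysin MMP10 (8.76 CPM in Cal27, 0.144 CPM in HN4) were higher. The inhibitors TIMP2 (71.4 CPM in Cal27, 241 CPM in HN4) and TIMP3 (6.25 CPM in Cal27, 67.1 CPM in HN4) were lower. Among proteoglycan and elastic fibre genes, 7 were over 2-fold higher and 5 over 2-fold lower in Cal27 among the 22 tested. CD44, the hyaluronan receptor, was at 2319 ± 112 CPM in Cal27 and 982 ± 31.6 CPM in HN4 (log2 difference 1.24 ± 0.0486, adjusted p = 2.88e-05). The fibrillin FBN2 was at 5.74 ± 0.56 CPM in Cal27 and 142 ± 1.62 CPM in HN4 (log2 difference -4.63 ± 0.0867, adjusted p = 2.36e-19).

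EREG, HBEGF, BTC and EPGN, ligands of the EGF receptor family, were over 2-fold lower in Cal27, and NRG1 was higher. Of the EGFR family and its ligands, 2 were over 2-fold higher and 4 over 2-fold lower in Cal27 among the 16 tested, at a median of -0.44. EREG, which encodes epiregulin (chromosome 4, 74365143 to 74388751, plus strand), had 49.7, 57.7 and 58.1 CPM in the Cal27 libraries, against 594, 609 and 574 CPM in the HN4 libraries (log2 difference -3.42 ± 0.0773, adjusted p = 1.54e-17). HBEGF was at 56.9 CPM in Cal27 and 244 CPM in HN4. BTC was at 4.2 CPM in Cal27 and 18.9 CPM in HN4. EPGN was at 0.313 CPM in Cal27 and 3.85 CPM in HN4. These 4 ligands were over 2-fold lower in Cal27. NRG1, the neuregulin that binds ERBB3 and ERBB4, had 202, 211 and 198 CPM in the Cal27 libraries, against 4.12, 3.66 and 3.65 CPM in the HN4 libraries (log2 difference 5.74 ± 0.0827, adjusted p = 4.76e-23). Every HN4 library was above every Cal27 library for EREG, and the reverse held for NRG1. The receptor EGFR itself was at 1857 ± 91 CPM in Cal27 and 1082 ± 12.2 CPM in HN4, higher in Cal27 by a log2 difference of 0.78 that did not pass the 2-fold limit (adjusted p = 1), and HN6 held 9568 CPM.

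Fibroblast growth factor receptors differed in opposite directions. Among other receptor kinases and growth factors, 13 were over 2-fold higher and 7 over 2-fold lower in Cal27 among the 41 tested. FGFR2 had 24.8, 26.4 and 24.7 CPM in the Cal27 libraries, against 0.407, 0.45 and 0.405 CPM in the HN4 libraries (log2 difference 5.89 ± 0.157, adjusted p = 6.74e-18). FGFR3 was at 36.1 ± 2.09 CPM in Cal27 and 1.05 ± 0.414 CPM in HN4 (log2 difference 5.10 ± 0.151, adjusted p = 6.22e-17). Both are receptors usual in epithelia. FGFR1, the receptor usual in mesenchyme, had 0.596, 0.425 and 0.352 CPM in the Cal27 libraries, against 18.6, 17.3 and 19.8 CPM in the HN4 libraries (log2 difference -5.33 ± 0.198, adjusted p = 3.98e-15). Its ligand FGF2 was at 12.8 ± 2.71 CPM in Cal27 and 175 ± 15.3 CPM in HN4 (log2 difference -3.77 ± 0.106, adjusted p = 5.61e-15). Cal27 thus had FGFR2 and FGFR3 reads and few of FGFR1, and HN4 the opposite. NTRK2, the receptor of the neurotrophin BDNF, had 52.7, 57.7 and 57.3 CPM in the Cal27 libraries, against 0, 0.0562 and 0 CPM in the HN4 libraries (adjusted p = 2.5e-20). IGFBP3, which binds insulin-like growth factors, had 2616, 2648 and 2548 CPM in the Cal27 libraries, against 55.7, 63.8 and 54.7 CPM in the HN4 libraries (log2 difference 5.49 ± 0.0691, adjusted p = 3.42e-24).

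Wnt and Notch genes that passed the 2-fold limit were mostly higher in Cal27. Of the Wnt list, 13 were over 2-fold higher and 3 over 2-fold lower in Cal27 among the 38 tested, at a median of 0.40. The ligand WNT3A (5.76 CPM in Cal27, 0 reads in HN4), the feedback inhibitors NKD1 (4.79 CPM in Cal27, 0.253 CPM in HN4), NKD2 (13 CPM in Cal27, 0 reads in HN4) and RNF43 (10.6 CPM in Cal27, 0.943 CPM in HN4) and the receptor FZD8 (3.53 CPM in Cal27, 0.57 CPM in HN4) were among the rises. WNT5A (0 reads in Cal27, 6.93 CPM in HN4) and WNT9A (8.33 CPM in Cal27, 68.3 CPM in HN4) were lower. AXIN2, a common target of the pathway, was at 0 reads in Cal27 and 0.0193 CPM in HN4 and was not tested. Of the Notch list, 7 were over 2-fold higher and 2 over 2-fold lower in Cal27 among the 20 tested, at a median of 0.54. The ligand DLL1 had 69.9, 62 and 63.9 CPM in the Cal27 libraries, against 0.203, 0.562 and 0.579 CPM in the HN4 libraries (log2 difference 7.19 ± 0.174, adjusted p = 6.02e-19). JAG1 was at 259.6 ± 6.27 CPM in Cal27 and 115 ± 2.43 CPM in HN4 (log2 difference 1.18 ± 0.0531, adjusted p = 0.00126). The receptor NOTCH3 was at 134 ± 11.4 CPM in Cal27 and 42.5 ± 3.52 CPM in HN4 (log2 difference 1.65 ± 0.0762, adjusted p = 1.17e-08). In the fit of 18 libraries that adds those given IL-8, JAG1 missed the 2-fold limit (adjusted p = 0.258). The targets HEY1 (3.75 CPM in Cal27, 0.943 CPM in HN4), HEYL (2.48 CPM in Cal27, 0.0187 CPM in HN4) and NRARP (12.8 CPM in Cal27, 1.88 CPM in HN4) were over 2-fold higher. HES1 (31.3 CPM in Cal27, 23.8 CPM in HN4) was higher by less. NOTCH1, often altered in these tumours, was at 83.7 CPM in Cal27 and 59.1 CPM in HN4, higher by less than 2-fold.

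Several genes of TGF-beta signalling were lower in Cal27, from receptor to target. Of that list, 5 were over 2-fold higher and 7 over 2-fold lower in Cal27 among the 31 tested, at a median of -0.10, so the list as a whole was near the median of all genes. The shares were 16.1% higher and 22.6% lower, against 12.8% and 11.5% of all tested genes. SMAD4, the shared partner of the receptor-activated SMADs (chromosome 18, 51028394 to 51085045, plus strand), had 9.22, 9.67 and 9.31 CPM in the Cal27 libraries, against 53.1, 49.2 and 45.6 CPM in the HN4 libraries (log2 difference -2.39 ± 0.0895, adjusted p = 4.27e-13). TGFBR2, the ligand-binding receptor, had 57.3, 60.1 and 55.2 CPM in the Cal27 libraries, against 272, 265 and 259 CPM in the HN4 libraries (log2 difference -2.20 ± 0.0569, adjusted p = 8.51e-16). SMAD7, an inhibitor that the pathway itself induces, had 5.91, 4.62 and 5.63 CPM in the Cal27 libraries, against 34.8, 32.5 and 36.4 CPM in the HN4 libraries (log2 difference -2.68 ± 0.114, adjusted p = 1.3e-12). In all 3 genes every Cal27 library lay below every HN4 library. INHBA, the activin A subunit, was at 179 CPM in Cal27 and 842 CPM in HN4. LTBP3, which holds latent TGF-beta in the matrix, was at 25.9 CPM in Cal27 and 262 CPM in HN4. The bone morphogenetic proteins BMP2 (48.7 CPM in Cal27, 11.3 CPM in HN4), BMP4 (2.01 CPM in Cal27, 0.14 CPM in HN4) and BMP7 (9.55 CPM in Cal27, 0.0187 CPM in HN4) were higher. SMAD2 (53.2 CPM in Cal27, 81.6 CPM in HN4) and SMAD3 (340.4 CPM in Cal27, 421 CPM in HN4) were lower by less than 2-fold.

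The receptors of IL-8 were read little in either line. CXCR1 had 4 reads over the 3 Cal27 libraries and 1 over the 3 HN4 libraries and was not tested. CXCR2, the second receptor, had 7.1, 7.97 and 6.19 CPM in the Cal27 libraries, against 0.152, 0.0562 and 0.405 CPM in the HN4 libraries (log2 difference 5.09 ± 0.319, adjusted p = 7.98e-11), so every Cal27 library lay above every HN4 library at a low level. The ligand CXCL8 was at 446 ± 42.5 CPM in Cal27 and 424 ± 12.8 CPM in HN4, which did not pass the test against no difference (adjusted p = 0.344). Among the other ligands of these receptors, CXCL5 had 0, 0.0531 and 0 CPM in the Cal27 libraries, against 57, 54.4 and 53.3 CPM in the HN4 libraries (adjusted p = 7.64e-20). CXCL6 was at 0.0177 CPM in Cal27 and 8.07 CPM in HN4. CXCL1 was at 318 ± 10.6 CPM in Cal27 and 751 ± 44.7 CPM in HN4 (log2 difference -1.24 ± 0.0525, adjusted p = 6.73e-05). These 3 were over 2-fold lower in Cal27, CXCL2 (27.6 CPM in Cal27, 56.7 CPM in HN4) was lower by less, and CXCL3 (14.3 CPM in Cal27, 9.66 CPM in HN4) was higher by less.

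Among other secreted cytokines, the chemokines CCL2 and CX3CL1 were higher in Cal27, and CSF3, IL6, IL11 and LIF were lower. Of the cytokine and chemokine list, 11 were over 2-fold higher and 4 over 2-fold lower in Cal27 among the 35 tested, at a median of 0.09. CCL2, the chemokine that attracts monocytes (chromosome 17, 34255218 to 34257203, plus strand), had 968, 1025 and 1024 CPM in the Cal27 libraries, against 1.02, 0.9 and 1.1 CPM in the HN4 libraries (log2 difference 9.96 ± 0.0913, adjusted p = 8.72e-25). CX3CL1, known as fractalkine, had 156, 147 and 152 CPM in the Cal27 libraries, against 0.762, 0.225 and 0.463 CPM in the HN4 libraries (log2 difference 8.24 ± 0.184, adjusted p = 1.21e-16). CSF3, the granulocyte colony-stimulating factor, had 1.63, 1.59 and 1.26 CPM in the Cal27 libraries, against 118, 127 and 121 CPM in the HN4 libraries (log2 difference -6.35 ± 0.108, adjusted p = 9e-22). In these 3 genes no Cal27 library overlapped with an HN4 library, as in 4146 of the 4148 genes past 2-fold. The IL-6 family members IL6 (1.52 CPM in Cal27, 18.5 CPM in HN4), IL11 (1.27 CPM in Cal27, 7.84 CPM in HN4) and LIF (73.3 CPM in Cal27, 378 CPM in HN4) were over 2-fold lower in Cal27. IL1RN, the antagonist of the IL-1 receptor, was at 26.6 ± 0.771 CPM in Cal27 and 0.418 ± 0.0615 CPM in HN4 (log2 difference 5.96 ± 0.174, adjusted p = 3.42e-17), while IL1B was at 305 CPM in Cal27 and 287 CPM in HN4 and did not pass the test against no difference (adjusted p = 0.13). Of 30 cytokine receptors tested, 11 were over 2-fold higher, and 9 were lower by less than 2-fold. ACKR3, a scavenging receptor of CXCL12, was at 48.3 CPM in Cal27 and 0.0925 CPM in HN4. TNFRSF9, known as 4-1BB, was at 66.6 CPM in Cal27 and 0.196 CPM in HN4. LIFR was at 26.5 CPM in Cal27 and 3.94 CPM in HN4. NF-kB factors and targets had 4 higher and 2 lower of 26 and a median of -0.08. Their shares were 15.4% and 7.69%, against 12.8% and 11.5% of all tested genes. TNFAIP3, an inhibitor that NF-kB induces, was at 509 CPM in Cal27 and 207 CPM in HN4, a call lost in the fit of 18 libraries that adds those given IL-8 (adjusted p = 0.0694). The acute phase gene SAA1 was at 79 CPM in Cal27 and 263 CPM in HN4.

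Cal27 carried RNA of the MHC class II pathway, and HN4 almost none. CIITA, the activator on which class II transcription depends (chromosome 16, 10866222 to 10943021, plus strand), had 40.5, 40 and 40.7 CPM in the Cal27 libraries, against 3.1, 2.81 and 3.3 CPM in the HN4 libraries (log2 difference 3.72 ± 0.104, adjusted p = 7.45e-17). CD74 had 525, 513 and 502 CPM in the Cal27 libraries, against 0.305, 0 and 0.347 CPM in the HN4 libraries (adjusted p = 7e-24). HLA-DRA had 173, 176 and 168 CPM in the Cal27 libraries, against 0.102, 0.225 and 0 CPM in the HN4 libraries (adjusted p = 6.65e-21). The 3 genes were present in every Cal27 library, and CD74 and HLA-DRA were at the limit of detection in HN4. HLA-DPA1 (26.3 CPM in Cal27, 0.0169 CPM in HN4), HLA-DRB1 (33.6 CPM in Cal27, 0.0386 CPM in HN4), whose reads may be split with its paralogs, and HLA-DMA (34.4 CPM in Cal27, 2.51 CPM in HN4) were higher as well. HN6 held 67.2 CPM of CD74 and 0.747 CPM of HLA-DRA. Class I genes were read in both lines, with HLA-B at 638 CPM in Cal27 and 1085 CPM in HN4. B2M was at 1816 CPM in Cal27 and 1968 CPM in HN4. HLA-B and B2M were lower in Cal27 by less than 2-fold. NLRC5, the activator of class I, was at 40.2 ± 1.77 CPM in Cal27 and 90.4 ± 3.52 CPM in HN4 (log2 difference -1.17 ± 0.0679, adjusted p = 0.0107). That call was lost in DESeq2 (adjusted p = 0.117) and with upper quartile scaling (adjusted p = 0.119). CD274, which encodes PD-L1, was at 10.3 ± 1.31 CPM in Cal27 and 51.7 ± 3.6 CPM in HN4 (log2 difference -2.33 ± 0.0926, adjusted p = 1.73e-12). Of the whole list, 12 were over 2-fold higher and 2 over 2-fold lower in Cal27 among the 34 tested.

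Interferon-stimulated genes were higher in Cal27 in part. 15 of 44 were over 2-fold higher and 3 lower, at a median of 0.63. The largest were IFITM1 (44.6 ± 4.97 CPM in Cal27 and 0.713 ± 0.0388 CPM in HN4; log2 difference 5.95 ± 0.149, adjusted p = 1.62e-18), IFI27 (66.6 CPM in Cal27, 4.37 CPM in HN4), IFITM2 (45.2 CPM in Cal27, 3.61 CPM in HN4) and the antiviral OAS2 (91.7 CPM in Cal27, 9.1 CPM in HN4). The interferon-induced chemokines CXCL10 (12.9 CPM in Cal27, 0.329 CPM in HN4) and CXCL11 (14.3 CPM in Cal27, 0.492 CPM in HN4) were also higher. Others of the list did not follow. MX1 (35.3 CPM in Cal27, 51.5 CPM in HN4) and ISG15 (92.5 CPM in Cal27, 118 CPM in HN4) were lower by less than 2-fold. STAT2 was at 80.3 CPM in Cal27 and 79.2 CPM in HN4 (adjusted p = 0.776 against no difference). HERC5 (10.6 CPM in Cal27, 30.3 CPM in HN4), HERC6 (9.71 CPM in Cal27, 23.4 CPM in HN4) and GBP3 (28.8 CPM in Cal27, 77.5 CPM in HN4) were over 2-fold lower, of which HERC6 missed the limit in DESeq2 (adjusted p = 0.089).

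**Figure D3:**
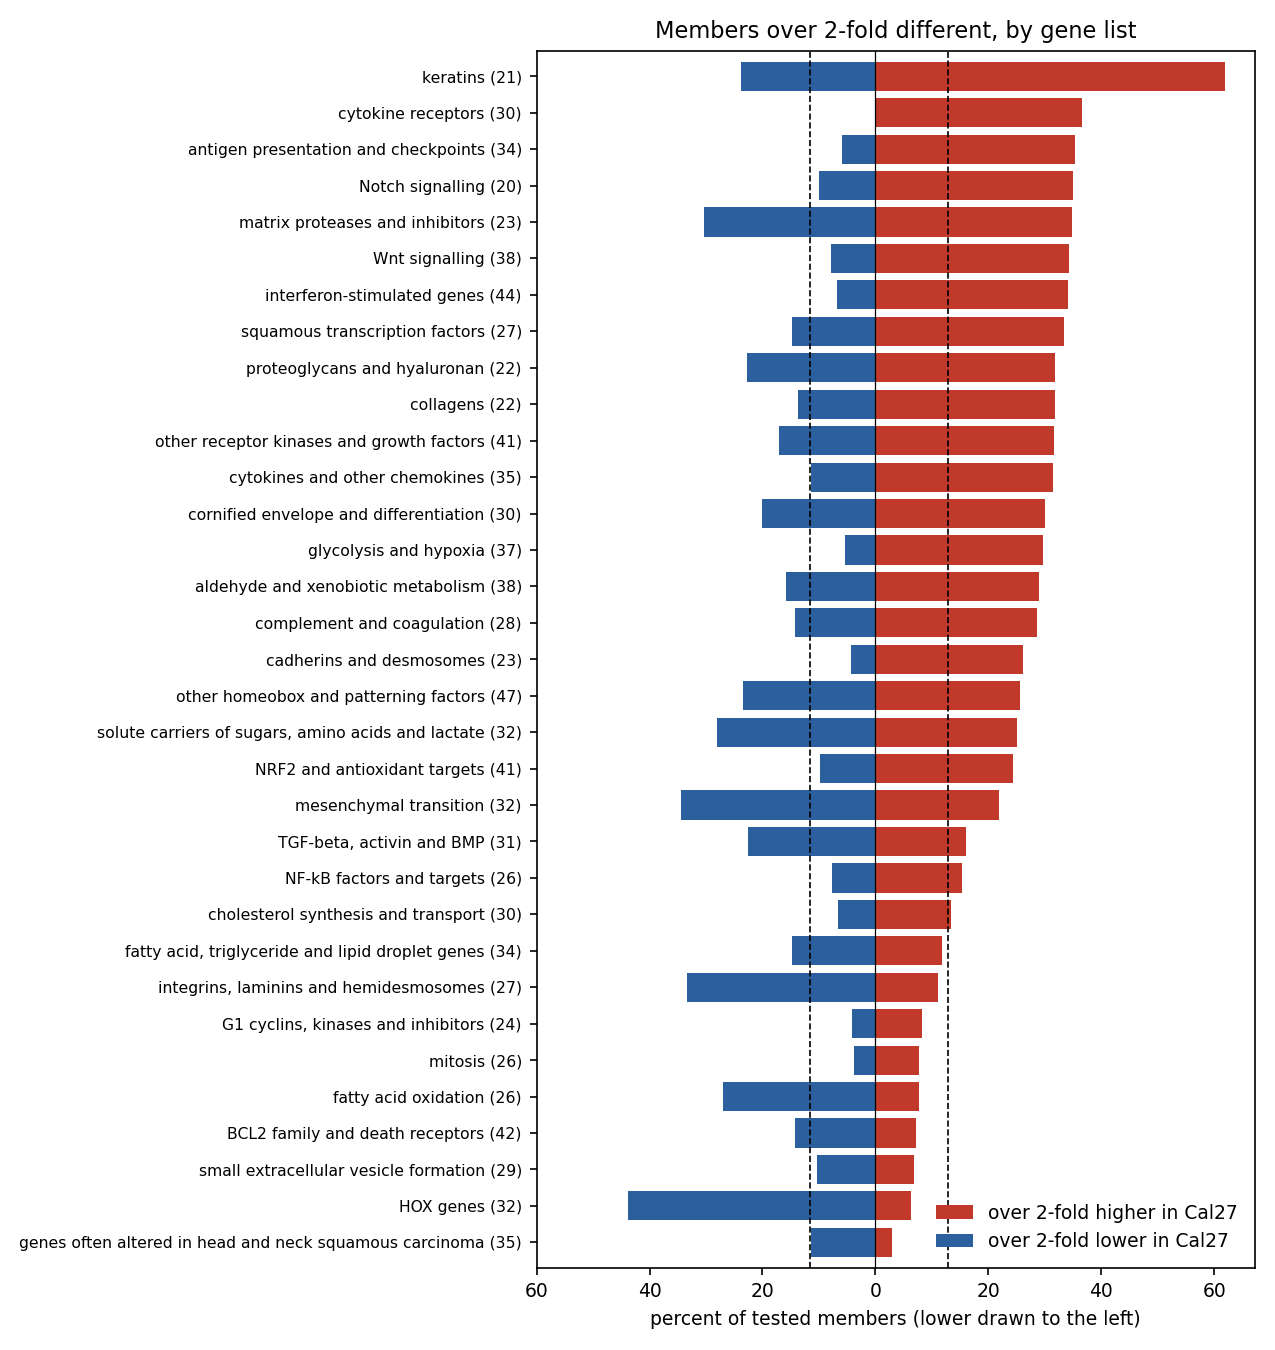
Share of tested members of 33 gene lists that were over 2-fold higher in Cal27 (red, to the right) or over 2-fold lower (blue, to the left), in percent, with the number tested beside each name. The dashed lines mark the shares of all 17070 tested autosomal genes, 12.8% higher and 11.5% lower, and keratins reach farthest to the right and HOX genes farthest to the left.

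MDM2, CDKN1A and GDF15 were each over 2-fold lower in Cal27. MDM2, a ubiquitin ligase (chromosome 12, 68808176 to 68850686, plus strand), had 36.8, 47.2 and 42 CPM in the Cal27 libraries, against 336, 324 and 316 CPM in the HN4 libraries (log2 difference -2.95 ± 0.0808, adjusted p = 1.49e-15). CDKN1A, the p21 inhibitor of cyclin-dependent kinases, had 71.6, 69.3 and 66.9 CPM in the Cal27 libraries, against 397, 405 and 423 CPM in the HN4 libraries (log2 difference -2.56 ± 0.0642, adjusted p = 6.51e-17). GDF15, a stress-induced cytokine, had 58.7, 47.1 and 50.7 CPM in the Cal27 libraries, against 275, 287 and 298 CPM in the HN4 libraries (log2 difference -2.46 ± 0.0801, adjusted p = 1.02e-13). In all 3 every HN4 library lay above every Cal27 library. CCNG1 (45.6 CPM in Cal27, 130.3 CPM in HN4), RRM2B (39.5 CPM in Cal27, 107 CPM in HN4) and AEN (21.9 CPM in Cal27, 66.6 CPM in HN4) were also over 2-fold lower. FDXR (43.9 CPM in Cal27, 16.8 CPM in HN4) and PLK2 (111 CPM in Cal27, 24.7 CPM in HN4) were higher, a call that FDXR lost in the fit of 18 libraries (adjusted p = 0.146). HN6 held 81 CPM of MDM2 and 151 CPM of CDKN1A.

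**Figure D4:**
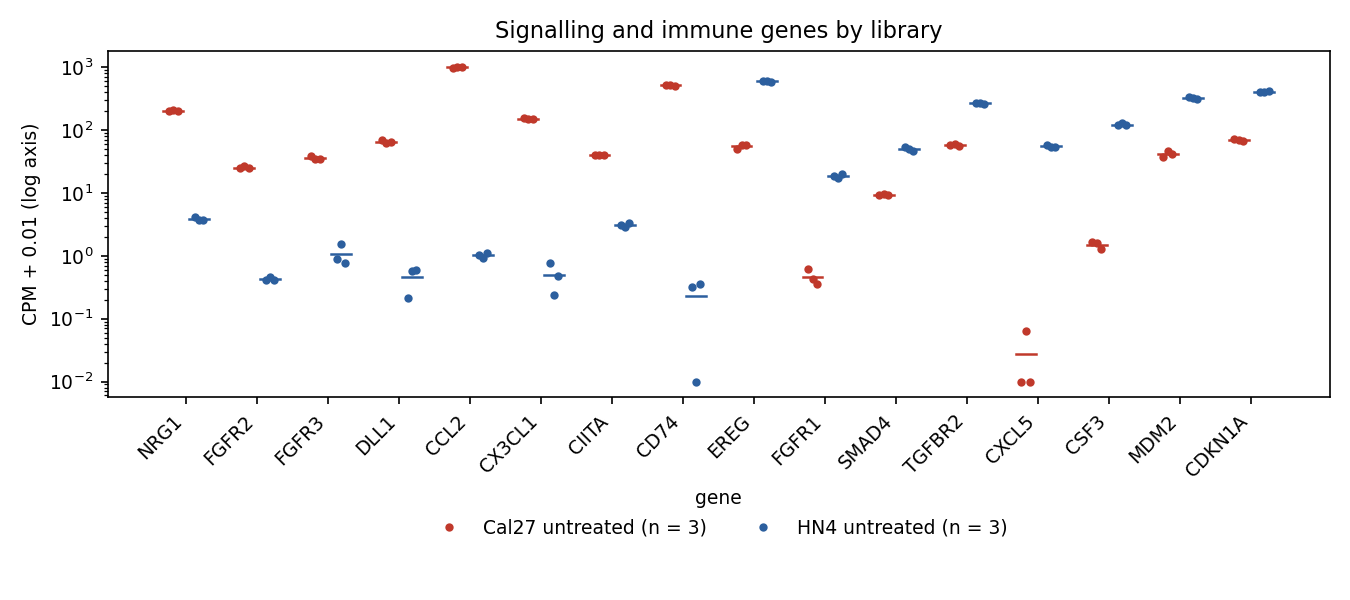
Level of 16 signalling and immune genes in each of the 3 untreated Cal27 libraries (red, left of each pair) and the 3 untreated HN4 libraries (blue, right), as CPM + 0.01 on a log axis, with a bar at the mean. NRG1, FGFR2, FGFR3, DLL1, CCL2, CX3CL1, CIITA and CD74 lie higher in every Cal27 library, and EREG, FGFR1, SMAD4, TGFBR2, CXCL5, CSF3, MDM2 and CDKN1A lie higher in every HN4 library.

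Few genes of the G1 and mitosis lists passed the 2-fold limit. Of the G1 genes, 2 were over 2-fold higher and 1 over 2-fold lower in Cal27 among the 24 tested, and of the mitotic genes, 2 were over 2-fold higher and 1 over 2-fold lower in Cal27 among the 26 tested. The shares were 8.33% and 4.17% for G1 genes and 7.69% and 3.85% for mitotic genes. Among all tested genes they were 12.8% and 11.5%. CDKN1A, given above and over 2-fold lower, is outside the G1 count. The G1 fall was lost in DESeq2, with upper quartile scaling, without the first HN4 library and in the fit of 18 libraries. CCND2 was the largest of the G1 differences, at 10.7 CPM in Cal27 and 0 reads in HN4. CDKN2A, the p16 and p14ARF locus that is lost in many of these tumours, was read in both lines at 54.3 ± 8.73 CPM in Cal27 and 49.9 ± 1.08 CPM in HN4 (adjusted p = 0.221 against no difference), while HN6 had 0.422 CPM. CDK1 was at 156 CPM in Cal27 and 60.8 CPM in HN4. PLK1 was at 69.3 CPM in Cal27 and 26.9 CPM in HN4. MKI67, the proliferation marker, was at 377 CPM in Cal27 and 393 CPM in HN4 (adjusted p = 0.351 against no difference). Of 35 genes often altered in head and neck squamous carcinoma, 1 was over 2-fold higher and 4 were over 2-fold lower. That was 2.86% and 11.4%, against 12.8% and 11.5% of all tested genes, so the share of falls was near that of all genes. FAT1, an atypical cadherin and tumour suppressor, had 417, 505 and 449 CPM in the Cal27 libraries, against 13.4, 16.7 and 15.1 CPM in the HN4 libraries (log2 difference 4.93 ± 0.0893, adjusted p = 2.08e-19), and the falls were SMAD4, TGFBR2, FGFR1 and FLRT3 (0.98 CPM in Cal27, 4.27 CPM in HN4). Of the BCL2 family and death receptor genes, 3 were over 2-fold higher and 6 over 2-fold lower in Cal27 among the 42 tested. Those shares were 7.14% and 14.3%, against 12.8% and 11.5% of all tested genes. The anti-death BCL2L1 was at 55.4 CPM in Cal27 and 167 CPM in HN4. CASP1, the inflammatory caspase, was at 103 CPM in Cal27 and 29.6 CPM in HN4.

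Most glycolysis and hypoxia genes were higher in Cal27, the greater part by less than 2-fold. 11 of 37 were over 2-fold higher, 19 more were higher by less, and 2 were over 2-fold lower, at a median of 0.88. LDHA, which makes lactate, was at 2919 ± 82 CPM in Cal27 and 1306 ± 44.4 CPM in HN4 (log2 difference 1.16 ± 0.0464, adjusted p = 0.00108). EGLN3, a prolyl hydroxylase that hypoxia induces, was at 249 ± 2.22 CPM in Cal27 and 16.6 ± 0.95 CPM in HN4 (log2 difference 3.91 ± 0.0658, adjusted p = 3.21e-21). The carbonic anhydrase CA9 was at 106 CPM in Cal27 and 35.3 CPM in HN4, and CA12 was at 22.3 CPM in Cal27 and 0.547 CPM in HN4. The lactate carriers split. SLC16A1, known as MCT1, was at 216 ± 6.35 CPM in Cal27 and 57.6 ± 0.782 CPM in HN4 (log2 difference 1.91 ± 0.054, adjusted p = 7.05e-14). SLC16A3, known as MCT4, was at 77.5 ± 11.7 CPM in Cal27 and 409 ± 22.5 CPM in HN4 (log2 difference -2.40 ± 0.121, adjusted p = 5.57e-07). SLC16A3 and the kinase PFKFB4 (12.3 CPM in Cal27, 45.1 CPM in HN4) were the 2 members over 2-fold lower.

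PLIN2, the coat of lipid droplets, was almost absent from Cal27. The gene (chromosome 9, 19108375 to 19149290, minus strand) had 0.271, 0.531 and 0.252 CPM in the Cal27 libraries, against 90.9, 95.2 and 92 CPM in the HN4 libraries (log2 difference -8.02 ± 0.157, adjusted p = 1.04e-20), and HN6 had 0.0948 CPM. Of the fatty acid and lipid droplet genes, 4 were over 2-fold higher and 5 over 2-fold lower in Cal27 among the 34 tested, or 11.8% and 14.7%, near the 12.8% and 11.5% of all tested genes. FABP5, a fatty acid carrier of epidermis, was at 102 ± 3.7 CPM in Cal27 and 9.45 ± 0.825 CPM in HN4 (log2 difference 3.44 ± 0.0885, adjusted p = 1.74e-17). ACLY was at 237 CPM in Cal27 and 373 CPM in HN4, lower by less than 2-fold. Of the fatty acid oxidation genes, 2 were over 2-fold higher and 7 over 2-fold lower in Cal27 among the 26 tested, at a median of -0.34. PPARG, a nuclear receptor of lipid storage, was at 4.35 CPM in Cal27 and 42.7 CPM in HN4. The mitochondrial thiolase ACAA2 was at 1.19 CPM in Cal27 and 41.4 CPM in HN4. The coactivator PPARGC1A was at 0.0168 CPM in Cal27 and 1.03 CPM in HN4. Of the cholesterol genes, 4 were over 2-fold higher and 2 over 2-fold lower in Cal27 among the 30 tested, or 13.3% and 6.67%. The carriers APOE (3.59 CPM in Cal27, 55.4 CPM in HN4) and ABCA1 (4.19 CPM in Cal27, 24.6 CPM in HN4) were lower and the receptor VLDLR (6.47 CPM in Cal27, 0.326 CPM in HN4) higher.

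Genes of the cell surface and of secretion varied without a common direction. Of the genes of small extracellular vesicle formation, the subject of the study's title, 2 were over 2-fold higher and 3 over 2-fold lower in Cal27 among the 29 tested, at a median of -0.21. That was 6.9% and 10.3%, below the 12.8% and 11.5% of all tested genes. CAV1, which coats caveolae, was at 1939.6 ± 72.9 CPM in Cal27 and 533 ± 13.5 CPM in HN4 (log2 difference 1.86 ± 0.0496, adjusted p = 3.19e-14). The small GTPase RAB31 was at 158 CPM in Cal27 and 55 CPM in HN4. The SNARE protein STX1A (7.52 CPM in Cal27, 32.2 CPM in HN4), the sorting factor STAM (16.1 CPM in Cal27, 36.7 CPM in HN4) and the raft protein FLOT1 (59.7 CPM in Cal27, 132 CPM in HN4) were over 2-fold lower. The vesicle markers CD63 (257 CPM in Cal27, 557 CPM in HN4) and RAB27A (22.2 CPM in Cal27, 34.7 CPM in HN4) were lower by less. The 2-fold calls of STAM and FLOT1 were lost in DESeq2 (adjusted p = 0.389 and adjusted p = 0.293) and when single libraries were left out. Both were also lost with upper quartile scaling (adjusted p = 0.169 and adjusted p = 0.247). CD63 passed the limit with no filter on low counts (adjusted p = 0.0323). Without the first Cal27 library STAM had an adjusted p of 0.162, and without the first and the second HN4 library 0.102 and 0.104. FLOT1 had 0.153 and 0.0585 without the second and the third Cal27 library and 0.0574 without the second HN4 library. Of the mucins and glycoproteins, 4 were over 2-fold higher and 4 over 2-fold lower in Cal27 among the 13 tested. MUC16, the source of the CA125 antigen, was at 94.4 ± 8.73 CPM in Cal27 and 4.62 ± 0.25 CPM in HN4 (log2 difference 4.35 ± 0.107, adjusted p = 1.95e-17). MSLN, its binding partner mesothelin, was at 0.543 ± 0.113 CPM in Cal27 and 49.7 ± 0.283 CPM in HN4 (log2 difference -6.50 ± 0.153, adjusted p = 4.78e-19), so the pair went opposite ways. Of the complement and coagulation genes, 8 were over 2-fold higher and 4 over 2-fold lower in Cal27 among the 28 tested. The clotting starter F3, known as tissue factor, was at 1427 ± 41.8 CPM in Cal27 and 428 ± 11.6 CPM in HN4 (log2 difference 1.74 ± 0.0478, adjusted p = 3.22e-13). Its inhibitor TFPI was at 2.39 ± 0.172 CPM in Cal27 and 40.3 ± 3.27 CPM in HN4 (log2 difference -4.07 ± 0.118, adjusted p = 9.1e-17). The complement regulator CLU (78.2 CPM in Cal27, 0.411 CPM in HN4) was also higher. Of the solute carriers, 8 were over 2-fold higher and 9 over 2-fold lower in Cal27 among the 32 tested. The leucine carrier SLC7A5 was at 1310.1 ± 88.1 CPM in Cal27 and 521 ± 5.69 CPM in HN4 (log2 difference 1.33 ± 0.0527, adjusted p = 1.41e-06). The glutamate carrier SLC1A3 was at 21 ± 1.67 CPM in Cal27 and 114 ± 2.93 CPM in HN4 (log2 difference -2.44 ± 0.068, adjusted p = 1.09e-15). Of the stem cell associated genes, 5 were over 2-fold higher and 4 over 2-fold lower in Cal27 among the 13 tested: the nerve growth factor receptor NGFR was at 25.2 CPM in Cal27 and 0.616 CPM in HN4. ENG, a co-receptor of TGF-beta, was at 4.56 CPM in Cal27 and 55.5 CPM in HN4.

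Enzymes that handle peroxides, aldehydes and foreign compounds went in both directions. Of the aldehyde and xenobiotic genes, 11 were over 2-fold higher and 6 over 2-fold lower in Cal27 among the 38 tested, at a median of 0.50. ALDH1A3, which makes retinoic acid (chromosome 15, 100877714 to 100916626, plus strand), had 20.1, 19.5 and 21.1 CPM in the Cal27 libraries, against 819, 769 and 786 CPM in the HN4 libraries (log2 difference -5.29 ± 0.0653, adjusted p = 3.42e-24). ALDH3A1 (12.1 CPM in Cal27, 0.29 CPM in HN4), ALDH1L1 (24.6 CPM in Cal27, 0.181 CPM in HN4) and ALDH1L2 (40.9 CPM in Cal27, 0.525 CPM in HN4) stood the other way. CYP1A1 and TIPARP, both known targets of the aryl hydrocarbon receptor, differed in opposite directions. CYP1A1 was at 0.989 ± 0.459 CPM in Cal27 and 23.4 ± 0.42 CPM in HN4 (log2 difference -4.57 ± 0.176, adjusted p = 1.11e-14). TIPARP was at 198 ± 18.5 CPM in Cal27 and 36.9 ± 1.49 CPM in HN4 (log2 difference 2.42 ± 0.0712, adjusted p = 2.71e-15). The receptor AHR was at 112 CPM in Cal27 and 42.2 CPM in HN4. Among NRF2 and antioxidant genes, 10 were over 2-fold higher and 4 over 2-fold lower in Cal27 among the 41 tested. The aldo-keto reductases split, with AKR1C1 (42.4 CPM in Cal27, 2.86 CPM in HN4) and AKR1C2 (39.2 CPM in Cal27, 0.775 CPM in HN4), which are close paralogs, higher and AKR1B1 (157 ± 8.66 CPM in Cal27 and 993 ± 9.57 CPM in HN4; log2 difference -2.66 ± 0.0544, adjusted p = 9.94e-19) lower. GSTM1 and GSTM3 had 3.62 and 8.2 CPM in Cal27 and 0 reads in HN4, and GSTM genes are near-identical to each other.

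HOX genes that passed the 2-fold limit were mostly lower in Cal27. These homeobox factors keep a memory of position along the body axis. Of the 39, 2 were over 2-fold higher and 14 over 2-fold lower in Cal27 among the 32 tested, at a median of -1.12. The 14 falls lay in the HOXA, HOXB and HOXC clusters. HOXA9 had 2.66, 2.71 and 1.76 CPM in the Cal27 libraries, against 33.9, 35.3 and 31.6 CPM in the HN4 libraries (log2 difference -3.82 ± 0.131, adjusted p = 2.66e-15). HOXA10 was at 8.33 CPM in Cal27 and 40.3 CPM in HN4. HOXB3 was at 2.95 CPM in Cal27 and 20.1 CPM in HN4. HOXB9 was at 6.04 CPM in Cal27 and 21.8 CPM in HN4. HOXC12 was at 0 reads in Cal27 and 3.19 CPM in HN4. Both rises, HOXD8 (9.21 CPM in Cal27, 2.06 CPM in HN4) and HOXD13 (0.809 CPM in Cal27, 0.0714 CPM in HN4), lay in the HOXD cluster, where HOXD10 (42.8 CPM in Cal27, 34 CPM in HN4) was higher by less. HN6 held 2.02 CPM of HOXA9 and 8.68 CPM of HOXA10. Among other homeobox and patterning factors, 12 were over 2-fold higher and 11 over 2-fold lower in Cal27 among the 47 tested. SOX9 (19.3 ± 2.09 CPM in Cal27 and 124 ± 8.19 CPM in HN4; log2 difference -2.69 ± 0.0773, adjusted p = 6.2e-16), SOX4 (8.31 CPM in Cal27, 74.4 CPM in HN4) and FOXA1 (2.87 CPM in Cal27, 21.6 CPM in HN4) were lower. TBX18 was at 0 reads in Cal27 and 8.19 CPM in HN4. EYA1 (8.71 CPM in Cal27, 0.0508 CPM in HN4), EYA4 (13.8 CPM in Cal27, 0.69 CPM in HN4) and FOXA2 (12.4 CPM in Cal27, 0.86 CPM in HN4) were higher. LIN28B, an RNA-binding protein of early development, was at 0 reads in Cal27 and 8.85 CPM in HN4.

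Differences were not spread evenly over the genome. Over the 13227 tested protein-coding genes, chromosome medians of the log2 difference ran from -0.56 on chromosome 20 to 0.34 on chromosome 9. On chromosome 20, 74 genes were over 2-fold lower and 20 higher among 363, and on chromosome 9, 40 were lower and 90 higher among 553. In windows of 41 neighbouring genes, the median of 41 log2 differences had its percentiles 1 and 99 at -1.21 and 1.22 over 12347 windows. The highest window ran on chromosome 1 from C1orf162 to WDR3 (111473792 to 117966542), where 32 of 41 genes were over 2-fold higher in Cal27, at a median of 1.54. HN6 also stood above HN4 there, by a median of 1.79. A window on chromosome 10 from RET to PRKG1 (43077027 to 52298350) had 27 of 41 over 2-fold higher, with HN6 above HN4 by a median of 1.27. In both windows the other two lines stood above HN4. Outside chromosome 19, the lowest windows were a pair at the end of the long arm of chromosome 8, KCNQ3 to SCRIB and EPPK1 to ZNF16, with 34 and 33 of 41 genes over 2-fold lower and medians of -1.87 and -1.80. HN6 stood between the other lines in this pair. HN6 minus HN4 had medians of -0.71 and -0.8, and Cal27 minus HN6 of -1.08 and -0.81.

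The longest run of neighbouring genes called in the same direction held 22 tested protein-coding genes over 2-fold lower in Cal27, from LY6E to NRBP2 on chromosome 8, at a median of -1.90. In it, NAPRT, which makes NAD from nicotinic acid, had 1.73, 1.17 and 1.16 CPM in the Cal27 libraries, against 103, 111 and 118 CPM in the HN4 libraries (log2 difference -6.36 ± 0.128, adjusted p = 2.3e-20). EEF1D, a translation elongation factor subunit, was at 51.3 ± 5.54 CPM in Cal27 and 264 ± 6.74 CPM in HN4 (log2 difference -2.36 ± 0.0708, adjusted p = 6.02e-15). The polarity scaffold SCRIB was at 57.5 ± 5.54 CPM in Cal27 and 269 ± 11.1 CPM in HN4 (log2 difference -2.23 ± 0.0712, adjusted p = 5.49e-14). A run of 15 genes higher in Cal27 lay on chromosome 14 from TTC5 to RNASE7 (20256558 to 21070872), with the DNA repair gene APEX1 at 526 CPM in Cal27 and 201 CPM in HN4. PARP2 was at 139 CPM in Cal27 and 38.2 CPM in HN4. NDRG2 was at 159.8 CPM in Cal27 and 11.1 CPM in HN4. The 11-gene run from KRT33A to KRT17 on chromosome 17 (41346092 to 41624842) was the type I keratin cluster, and EIF1 just past its end was at 399 CPM in Cal27 and 433 CPM in HN4. On chromosome 8, 9 neighbours from ADAM28 to BNIP3L were higher, among them KCTD9 (95.1 CPM in Cal27, 0.111 CPM in HN4) and CDCA2 (43 CPM in Cal27, 0.0532 CPM in HN4), which lie side by side and were near 0 in HN4, and the neurofilaments NEFL and NEFM (18.7 CPM in Cal27, 0 reads in HN4). CAT, EHF and CD44, given above in separate lists, lie in a run of 7 higher genes on chromosome 11, from ABTB2 to SLC1A2 (median 3.19). That run lies inside a window from MUC15 to TRAF6 with 21 of 41 genes over 2-fold higher. TIPARP lies in a run of 7 higher genes on chromosome 3, from SLC33A1 to CCNL1 (median 2.2). Whether neighbours in a run share a cause was not tested.

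The most unequal set of neighbours was the zinc finger genes of chromosome 19. These genes, named ZNF, ZFP and the like, lie there in tandem clusters, and most encode repressors with a KRAB domain that bind DNA of transposable elements. The set was chosen after the runs of neighbours had been seen, so its counts are a description with no test. Of 199 tested on chromosome 19, 74 were over 2-fold lower in Cal27 and 4 higher, and 61 (30.7%) had 0 reads in all 3 Cal27 libraries. In HN4 and in HN6, 2 of the 199 had 0 reads. Of 765 other protein-coding genes tested on chromosome 19, 3 had 0 reads in Cal27 (0.392%): CASP14, TSHZ3 and DLL3. Of 248 zinc finger genes tested on the other autosomes, 6 had 0 reads in Cal27 (2.42%). The 61 genes together had 14486 reads in the 3 HN4 libraries and 17580 in the 3 HN6 libraries. A gene with 0 reads in Cal27 could pass the filter only through HN4 or HN6, so reads there follow from the choice of the set. Not all 61 were well read in HN4: 41 had at least 100 reads there, and ZNF570 and ZNF229 had 0. A 0 over the 3 Cal27 libraries allows up to 0.0525 CPM by counting error. In the Cal27 libraries labelled vector, 60 of the 61 again had 0 reads, and 7 reads in all fell on the set, while the HN4 libraries labelled vector had 13502 reads and those labelled ACLY had 12857.

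The genes with 0 reads lay in blocks. From ZNF253 to ZNF254 (19865886 to 24129961), 16 of 21 tested zinc finger genes had 0 reads in Cal27, and no other protein-coding gene was tested in that span. ZNF91 had 0 reads in all 3 Cal27 libraries, against 13, 16.3 and 17.6 CPM in the HN4 libraries. Within the same block, ZNF430 (12 CPM in Cal27, 6.6 CPM in HN4), ZNF714 (20.6 CPM in Cal27, 19.3 CPM in HN4) and ZNF431 (31 CPM in Cal27, 15.7 CPM in HN4) stand side by side and were read in both lines. From ZFP14 to ZNF573 (36334453 to 37817300), 16 of 20 had 0 reads in Cal27. Among those 16, ZNF570 had 0 reads in HN4 too, and ZNF569 was at 0.0573 CPM in HN4. From ZNF577 to ZNF331 (51804816 to 53580269), 18 of 29 had 0 reads in Cal27. The phosphatase subunit gene PPP2R1A lies inside the last block and was at 219.9 CPM in Cal27 and 210.2 CPM in HN4. ZNF260, in the second block, had 0 reads in all 3 Cal27 libraries, against 15.4, 13.9 and 15.6 CPM in the HN4 libraries. ZNF146, the nearest tested gene before that block, had 103, 118 and 122 CPM in the Cal27 libraries, against 71.4, 80.1 and 75.2 CPM in the HN4 libraries. Zinc finger genes without reads in Cal27 thus lay close to others that were read in it. ZNF160 was at 0 reads in Cal27 and 13.7 CPM in HN4. ZNF83 was at 0 reads in Cal27 and 13.7 CPM in HN4. ZNF700, in a small block of 7 genes from ZNF700 to ZNF443 (11925068 to 12441112) of which 6 had 0 reads, was at 0 reads in Cal27 and 8.11 CPM in HN4. Zinc finger genes of a cluster resemble one another, and how reads that match several of them were counted is not given in the sources used here. What sets these blocks apart was not tested.

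**Figure D5:**
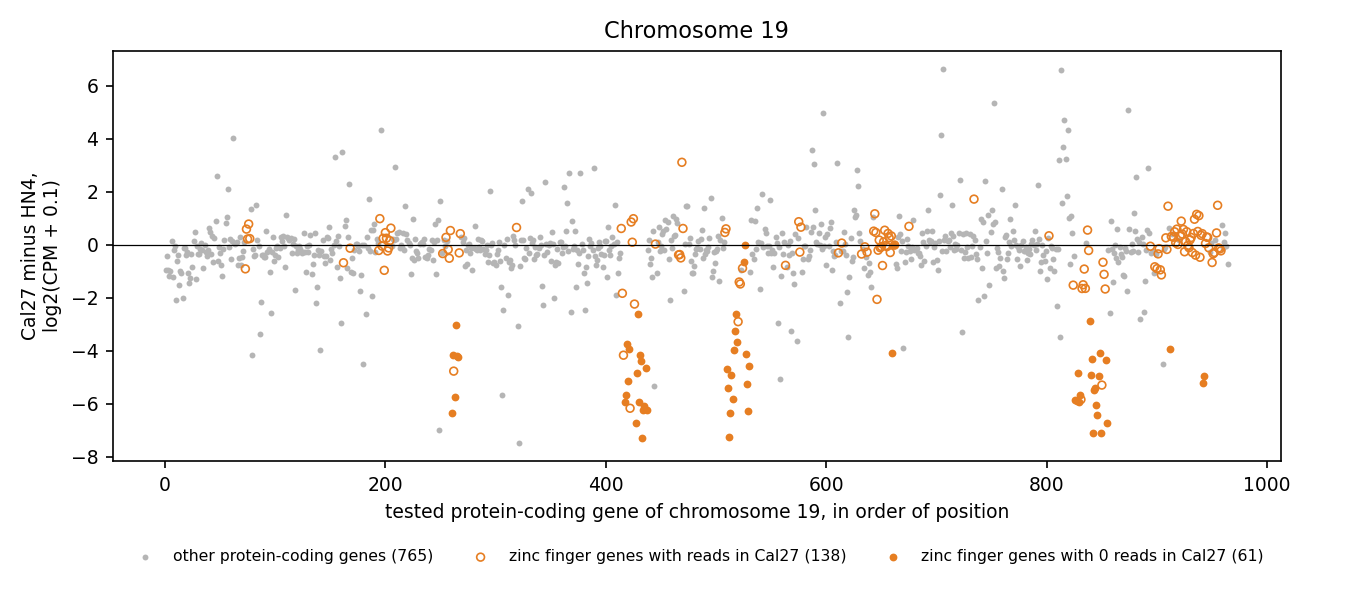
Difference of log2(CPM + 0.1) between Cal27 and HN4 for 964 tested protein-coding genes of chromosome 19 in their order along the chromosome (horizontal axis, gene number). Orange points are the 199 zinc finger genes, filled where Cal27 had 0 reads (61 genes), and grey points are the 765 other genes.

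Promoters of 4 genes are shown because they stand for genes present or absent in 1 line: ZNF260, without reads in Cal27, ZNF146 before the same block, read in both lines, ICA1, without reads in Cal27, and SPARC, without reads in HN4. The sequences are RefSeq windows of 300 bases, from 250 before to 50 after a start (GRCh38.p14), written along the strand of the gene with CG, the dinucleotide that can carry methyl groups, in capitals. CG reads the same on both strands, so 1 strand counts both.
ZNF260, chr19:36528222-36528521, minus strand: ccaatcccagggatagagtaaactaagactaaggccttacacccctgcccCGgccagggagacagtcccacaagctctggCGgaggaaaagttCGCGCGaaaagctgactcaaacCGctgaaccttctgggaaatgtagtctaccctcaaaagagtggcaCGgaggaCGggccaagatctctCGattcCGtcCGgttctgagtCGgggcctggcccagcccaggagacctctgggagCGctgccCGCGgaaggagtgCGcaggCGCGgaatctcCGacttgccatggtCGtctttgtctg
ZNF146, chr19:36214856-36215155, plus strand: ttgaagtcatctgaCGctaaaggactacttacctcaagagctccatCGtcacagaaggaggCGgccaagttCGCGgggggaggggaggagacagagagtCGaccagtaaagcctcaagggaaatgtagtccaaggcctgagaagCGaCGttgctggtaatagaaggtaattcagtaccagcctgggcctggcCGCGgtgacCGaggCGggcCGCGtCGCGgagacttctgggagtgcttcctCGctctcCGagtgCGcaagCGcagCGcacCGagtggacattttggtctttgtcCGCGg
ICA1, chr7:8262118-8262417, minus strand: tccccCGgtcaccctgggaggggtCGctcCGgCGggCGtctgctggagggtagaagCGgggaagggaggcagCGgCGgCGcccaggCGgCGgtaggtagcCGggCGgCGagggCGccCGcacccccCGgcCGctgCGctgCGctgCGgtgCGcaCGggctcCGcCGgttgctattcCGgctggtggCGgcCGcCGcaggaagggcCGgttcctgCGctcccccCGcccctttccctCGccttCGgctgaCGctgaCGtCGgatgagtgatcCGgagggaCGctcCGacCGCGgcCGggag
SPARC, chr5:151686866-151687165, minus strand: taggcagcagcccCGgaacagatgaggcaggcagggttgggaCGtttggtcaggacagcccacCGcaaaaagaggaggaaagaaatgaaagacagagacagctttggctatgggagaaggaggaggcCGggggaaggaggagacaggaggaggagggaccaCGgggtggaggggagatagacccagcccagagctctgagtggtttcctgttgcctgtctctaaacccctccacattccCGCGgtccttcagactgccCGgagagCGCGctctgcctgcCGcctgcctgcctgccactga

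The 4 windows hold 20 CG in ZNF260, 24 in ZNF146, 43 in ICA1 and 11 in SPARC. Over all 35116 windows of the reference the median was 14 (quartiles 4 and 28), and 96% of windows held at least 1. Among the chromosome 19 zinc finger genes, promoters were found for 53 of the 61 with 0 reads in Cal27 and for 124 of the 138 with reads. The median CG count per gene was 19 (quartiles 13.3 and 25) in the set without reads and 21 (quartiles 17 and 24.2) in the set with reads, so the 2 ranges overlap. The same count for genes read in 1 line only is void, because promoters were matched for 71.9% of those read in Cal27 only and 69.8% of those read in HN4 only.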

How the data were processed

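Poly-A RNA-seq of 36 libraries was deposited as 1 table of raw counts per gene. Per the submitters' processing notes, CASAVA, HISAT2 2.0.5, featureCounts 1.5.0-p3, DESeq2 and the build hg38 were used; how strand and multiply matching reads were handled, and with which annotation, is not given in the sources used here. Values of overlapping, antisense and near-identical genes are therefore uncertain. All 58735 gene IDs and positions matched GENCODE 29, which gave the names.

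Counts of the 9 untreated libraries of Cal27, HN4 and HN6 were fitted together in edgeR 4.0.16 (R 4.3.3, limma 3.58.1) after filterByExpr (minimum count 10, minimum total 15) with TMM factors, 1 mean per group and robust quasi-likelihood dispersions. The spread therefore includes HN6. Differences were tested against 0 (glmQLFTest) and against a log2 difference of 1 (glmTreat), two-sided, with Benjamini-Hochberg adjustment at 0.05 over all genes of the fit; autosomal genes only are counted and named. The 12 plasmid libraries of Cal27 and HN6 labelled vector and of both HN4 groups were fitted in the same way. The procedure was tested on simulated data. Alternatives were DESeq2 1.42.0, other scalings and filters, other sets of libraries and the replicate block. Replicates of each untreated and plasmid group were compared pairwise by chi-square and none was a repeat of another within sampling noise. Replicates given IL-8 were not compared in this way. Floors and limits from a count of 0 use 3 counts and cover counting error only, since reads carry no molecular identifiers.

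The members and the gene lists were chosen with earlier results of these data known, and the promoters and the zinc finger genes of chromosome 19 after their values were seen. Genes named are CXCR1, CXCR2, CXCL8 and ACLY, the 10 largest differences each way among protein-coding genes with 20 CPM or more in the higher line, the 6 largest each way with 20 CPM or more in both lines, up to 6 called members per list with further members that the order of roles needs, and genes of runs of neighbours. Other names were chosen after their values were seen. Some genes that this rule names, and 1 list, are not reported here. Promoter sequences are from RefSeq (GRCh38.p14) and are described with no test.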

Additional observations from a re-analysis of the deposited data

How the results depend on the processing

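The count of genes past 2-fold in untreated cells was 3306 in DESeq2, 4976 with no filter on low counts, 4101 with the 6 libraries alone and 4023 with 18 libraries, against 4148 as reported. With only genes at a mean of 5 CPM or more, fewer genes were tested and the counts were 1953 in untreated cells, 1964 for Cal27 labelled vector against HN4 labelled vector and 1901 against HN4 labelled ACLY. Leaving out 1 library at a time gave 4074 to 4254 genes past 2-fold and 11922 to 12518 past the test against no difference in untreated cells, 4321 to 4485 for Cal27 labelled vector against HN4 labelled vector, and 3978 to 4184 against HN4 labelled ACLY. With upper quartile scaling the median of all genes for Cal27 labelled vector against HN4 labelled vector was 0.172, where TMM gave -0.004. Replicate numbers of Cal27 and HN4 did not pair the untreated samples: libraries of the same number had correlations of -0.114, 0.132 and -0.053, and not every library was closest to its own number. For Cal27 and HN6, which shares in the fit, those of the same number had 0.394, 0.409 and -0.0193. Across numbers they had -0.481 to 0.177. Whether replicate numbers mark a batch was not tested. With the replicate block, 4173 genes passed 2-fold in untreated cells, 4428 against HN4 labelled vector and 4062 against HN4 labelled ACLY. Of 309 named genes examined, 297 kept their side of the 2-fold limit under every alternative, and FLOT1, STAM, ITGB1, NLRC5, HERC6, KRT6C, FDXR, JAG1, TNFAIP3, COL1A1 and TNNT1 (11 genes) lost the call under at least 1. CD63 gained it with no filter, in the replicate block and with the 6 libraries alone; none changed direction while called. Of 100 list counts, 38 moved by over 1.5 times under the filter at 5 CPM, and 10 in DESeq2. The medians of the windows on chromosomes 1, 10 and 8 were 1.27, 1.25 and -1.63 with 81 genes. Other windows depended more on their size. MUC15 to TRAF6 on chromosome 11 had 1.225 with 41 genes, 0.87 with 21 and 0.58 with 81. On chromosome 19, AC011473.4 to MYADM had -2.574 with 41 genes, -8.65 with 21 and -0.66 with 81. MAU2 to TSHZ3 had -2.148, -7.97 and -0.23. The comparison of promoters of genes read in 1 line only, with its alternative at 20 CPM, was not run because too few promoters matched. In genes with few reads the depth limits what can be seen: a count of 0 in a library allows up to 0.178 CPM.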
